A study of Mus musculus with 8 samples.

Results

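The Merkel cell genes are 8 genes of Merkel cell identity and neurosecretion, namely Atoh1, Sox2, Isl1, Pou4f3, Insm1, Rab3c, Snap25 and Piezo2. They were chosen by symbol, with the keratins of Merkel cells left out of the set and described beside it. All 8 symbols were among the 23433 in the count files, and each of the 8 was among the 14176 genes kept by a filter on low counts. In the interfollicular epidermis libraries alone the filter would have kept 1 of the 8, Piezo2, so 7 members were tested because of their counts in hair germ.

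Merkel cells are the touch receptor cells of the basal epidermis, and in the mouse they arise from keratin 14-positive epidermal progenitors, many of them close to developing hair follicles. The transcription factor Atoh1 is required for them to form, Sox2 and Isl1 act with it in their maturation, and the mature cells carry dense-core vesicles, release machinery and the mechanically gated channel Piezo2. The miR-200 family is a group of epithelial microRNAs that repress messenger RNAs through short seed matches in the 3′ UTR.

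Total RNA was sequenced from 2 sorted populations of newborn mouse skin (postnatal day 0.5) in 4 pups of mixed background whose dams ate doxycycline chow during pregnancy. Transgenic (Tg) pups 4 and 6 carried pTRE2-200bcl, a doxycycline-responsive miR-200 construct, together with K14rtTA, in which the keratin 14 promoter drives the transactivator. Control pup 3 carried K14rtTA alone and control pup 5 carried pTRE2-200bcl alone, so the controls also differed from each other in genotype. Sorted cells were positive for the K14RFP reporter and high for α6 integrin, and P-cadherin was high in hair germ, the bud from which a follicle grows, and low in interfollicular epidermis (IFE). The 4 groups, each of 2 libraries from separate pups, were Tg hair germ, control hair germ, Tg IFE and control IFE.

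Counts on genes ranged from 7109871 to 14039583 per library. The rRNA precursor gene Rn45s took 29.0% of them in Tg IFE pup 4 and 30.6% in control IFE pup 3, against 3.56% to 13.0% in the other 6 libraries. The miR200primary feature, a check of the genotype labels, had 4499 to 9449 counts in Tg libraries and 2 to 31 in control libraries. Levels are CPM, counts relative to the TMM-scaled library size, and a count of 0 allows up to 0.199 to 0.522 CPM in single libraries (3 counts). Such limits, and the 95% intervals of count ratios, cover at most counting error and leave out the spread between pups, since counts were pooled over a group. The reads carried no molecular identifiers, so copies made in amplification could not be told from separate molecules. In sorted bulk RNA, fewer cells of a type and less RNA per cell cannot be told apart.

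The 8 genes together were low in every library and were concentrated in hair germ. Their summed level was 37.1 and 42.9 CPM in Tg hair germ, 31.9 and 22.8 CPM in control hair germ, 6.07 and 5.89 CPM in Tg IFE, and 11.1 and 6.28 CPM in control IFE. The 5 transcription factor genes alone summed to 19.5 and 21.2 CPM in Tg hair germ, 8.96 and 4.05 CPM in control hair germ, 0.809 and 1.74 CPM in Tg IFE, and 1.04 and 0 CPM in control IFE. Hair germ was thus above IFE in both genotypes for the factors, and the Tg hair germ pair was above the control hair germ pair. Of the 8 genes, 7 and 8 were detected in Tg hair germ, 6 and 6 in control hair germ, 6 and 6 in Tg IFE, and 4 and 3 in control IFE.

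**Figure D1:**
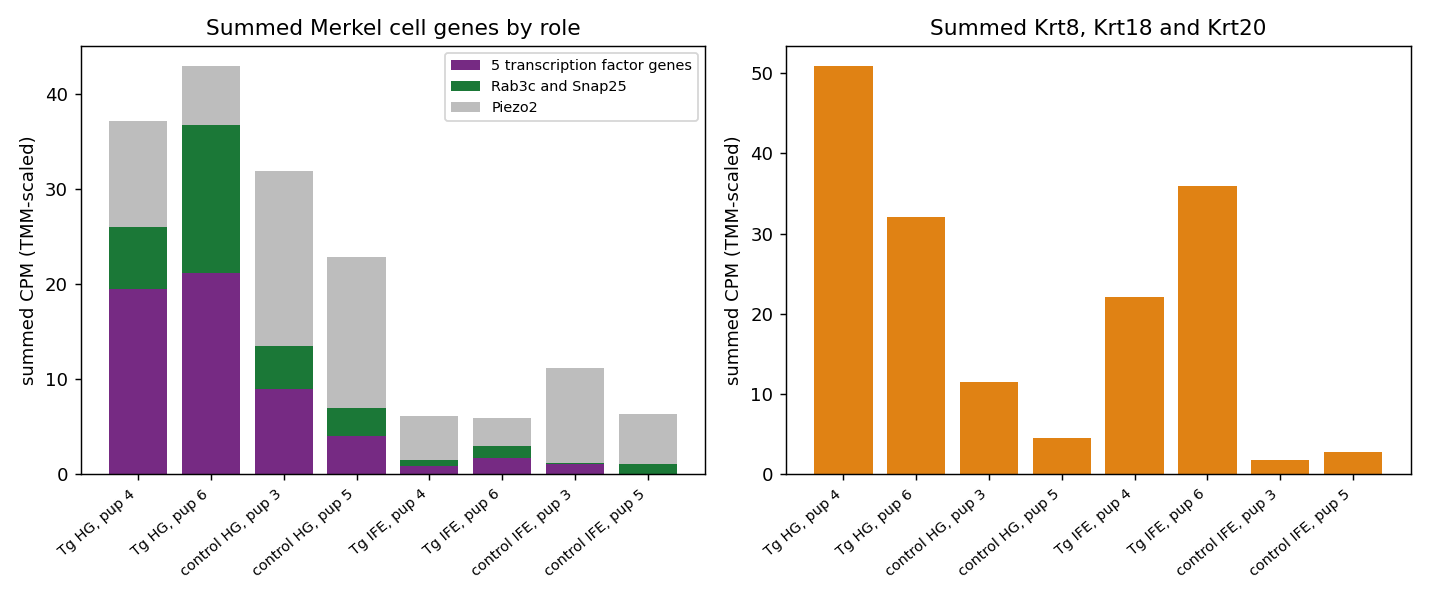
Summed TMM-scaled CPM in each of the 8 libraries, for the 8 Merkel cell genes split by role (left, stacked bars) and for the Merkel keratins Krt8, Krt18 and Krt20 (right). The factor genes reach 19.5 and 21.2 CPM in Tg hair germ, against 8.96 and 4.05 CPM in control hair germ, while the keratins are also high in Tg IFE (22.1 and 35.9 CPM) relative to control IFE (1.74 and 2.72 CPM).

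Atoh1, the basic helix-loop-helix factor at the head of the Merkel programme, was read only in hair germ. It had 32 and 14 counts in Tg hair germ (2.82 and 1.70 CPM), 46 and 8 counts in control hair germ (4.04 and 0.532 CPM), and 0 counts in all 4 IFE libraries. Every hair germ library was therefore above every IFE library, while the Tg and control hair germ libraries overlapped. The group mean was 2.26 ± 0.792 CPM in Tg hair germ and 2.29 ± 2.48 CPM in control hair germ (SD, n = 2 each). With IFE held at a floor of 3 counts over the group, hair germ was at least 16.1-fold higher in Tg pups and at least 11.9-fold higher in control pups. The edgeR adjusted p was 0.212 in Tg and 0.582 in control pups, so neither passed the threshold of 0.05.

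Atoh1 lies at chr6:64729125-64731245 on the plus strand (GRCm38, GENCODE vM21). Its promoter is shown because Atoh1 and Rab3c were the members with all 4 hair germ libraries above all 4 IFE libraries. The share of all tested genes with that order was not counted. The sequences are RefSeq's for GRCm38.p6, 250 bases before to 50 after the annotated start, at chr6:64728875-64729174 on the plus strand and chr13:110280157-110280456 on the minus strand. Capitals mark CAGCTG, a hexamer of the E-box class that basic helix-loop-helix factors bind, which reads the same on both strands.
Atoh1: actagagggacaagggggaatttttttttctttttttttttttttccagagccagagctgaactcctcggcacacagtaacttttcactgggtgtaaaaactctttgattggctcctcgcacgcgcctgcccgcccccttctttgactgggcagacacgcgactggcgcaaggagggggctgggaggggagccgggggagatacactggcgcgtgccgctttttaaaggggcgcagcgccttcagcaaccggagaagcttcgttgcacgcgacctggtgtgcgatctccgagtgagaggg
Rab3c: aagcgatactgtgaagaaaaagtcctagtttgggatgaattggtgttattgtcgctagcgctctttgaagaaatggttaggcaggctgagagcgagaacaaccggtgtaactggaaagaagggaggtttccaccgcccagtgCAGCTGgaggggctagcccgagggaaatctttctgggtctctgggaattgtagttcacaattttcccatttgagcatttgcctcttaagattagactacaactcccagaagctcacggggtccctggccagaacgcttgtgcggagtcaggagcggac
CAGCTG occurred 0 times in the Atoh1 window and 1 time in the Rab3c window, and 16.1% of the 27025 promoter windows held it. Promoter windows were examined for 4 of the 8 members, and among them the Isl1 window held the hexamer 1 time and the Sox2 window 0 times. CpG dinucleotides numbered 20 in the Atoh1 window, 27 in Sox2, 37 in Isl1 and 11 in Rab3c, against a median of 7 over all windows. These matches describe the letters and no binding was measured.

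Sox2, an HMG-box factor of embryonic progenitors that is kept in Merkel cells, had nearly all its counts in Tg hair germ. It had 55 and 36 counts in Tg hair germ (4.84 and 4.36 CPM), 4 and 0 counts in control hair germ (0.351 and 0 CPM), 2 and 1 counts in Tg IFE, and 0 counts in both control IFE libraries. Both Tg hair germ libraries were above all 6 others, an order whose share over all genes was not counted. The summed count was 91 in Tg hair germ and 4 in control hair germ, a ratio of 30.7 (95% interval 11.6 to 115). The log2 fold change was 4.82 (SE 1.31), with an unadjusted p of 0.00316 and an edgeR adjusted p of 0.0992, which missed the threshold. In Tg pups hair germ was 31.9-fold above IFE, with a log2 fold change of 4.87 (SE 1.42) and an adjusted p of 0.0786. Sox2 (chr3:34650405-34652461, plus strand) lies inside the same-strand noncoding gene Sox2ot, which had 44 and 30 counts in Tg hair germ, 34 and 22 in control hair germ, 11 and 15 in Tg IFE, and 3 and 26 in control IFE. Reads shared by the pair may have been split or discarded by the counting, and how strand was treated in counting is not stated in the sources used here.

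Isl1, a LIM-homeodomain factor of Merkel cells and sensory neurons, followed a similar order. Counts were 51 and 53 in Tg hair germ (4.49 and 6.42 CPM), 0 and 12 in control hair germ (0 and 0.797 CPM), 2 and 0 in Tg IFE, and 2 and 0 in control IFE. The Tg hair germ libraries were again above the 6 others, and the control hair germ pair straddled the IFE values. Tg over control hair germ was 11.7-fold (95% interval 6.41 to 23.3), with a log2 fold change of 3.55 (SE 1.17) and an edgeR adjusted p of 0.155. Hair germ over IFE in Tg pups was 54.7-fold (95% interval 14.8 to 458), with a log2 fold change of 5.62 (SE 1.66) and an adjusted p of 0.0798. In that comparison both Sox2 and Isl1 passed when the 4 Tg libraries were fitted alone (edgeR adjusted p 0.0201 for Sox2 and 0.0251 for Isl1). In that fit 1385 of 13563 genes were called. Neither passed with edgeR's older quasi-likelihood method or limma-voom. With 1 library left out, the log2 fold change ranged from 4.01 to 5.73 for Sox2 and from 4.22 to 8.88 for Isl1.

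Pou4f3, a POU-domain factor known as an Atoh1 target in inner ear hair cells, varied as much within control hair germ as between groups. It had 37 and 30 counts in Tg hair germ (3.26 and 3.64 CPM), 50 and 0 counts in control hair germ (4.39 and 0 CPM), 0 and 13 counts in Tg IFE, and 0 counts in control IFE. The Tg pups lay between the 2 control pups, and the fitted Tg difference in hair germ was 0.78 (log2, SE 1.16, edgeR adjusted p 0.781). All 13 counts in Tg IFE came from pup 6.

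Insm1, a zinc-finger factor of neuroendocrine cells, had 46 and 42 counts in Tg hair germ (4.05 and 5.09 CPM), 2 and 41 counts in control hair germ (0.176 and 2.72 CPM), 2 and 9 counts in Tg IFE, and 4 and 0 counts in control IFE. Both Tg hair germ pups were above both control pups, but control pup 5 was nearer to them than to control pup 3. The Tg difference in hair germ was 1.51 (log2, SE 0.94, edgeR adjusted p 0.438). In Tg pups hair germ was 8.42-fold above IFE (log2 fold change 3.07, SE 1.22, adjusted p 0.186).

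**Figure D2:**
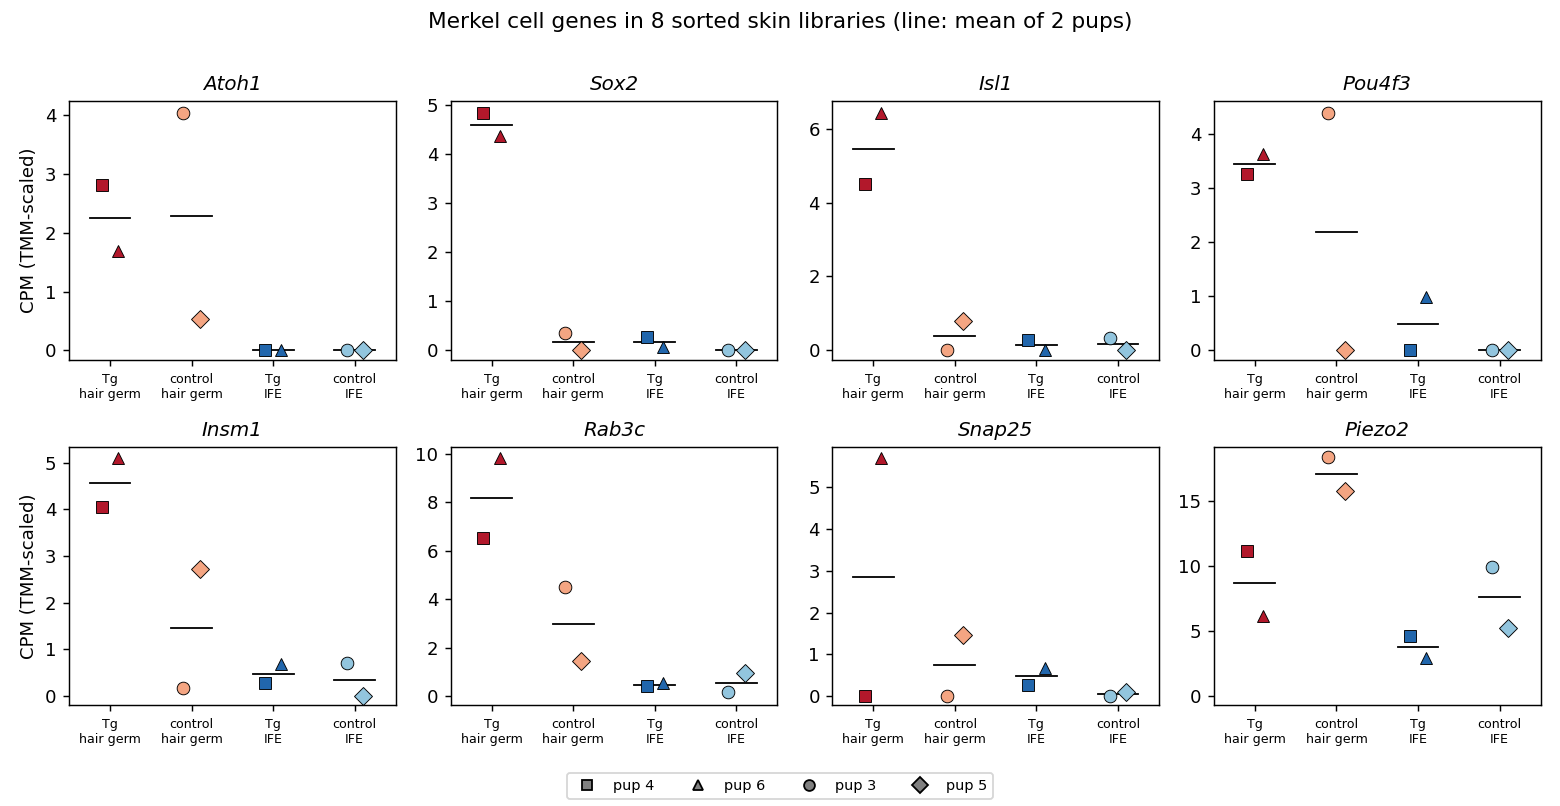
TMM-scaled CPM of each of the 8 Merkel cell genes in Tg hair germ, control hair germ, Tg IFE and control IFE; points are single pups and lines are means of 2 pups, and each panel has its own scale. Sox2 and Isl1 stand high in both Tg hair germ pups (4.36 to 4.84 and 4.49 to 6.42 CPM), Atoh1 is at 0 in all IFE libraries, and Piezo2 is higher in controls than in Tg pups within hair germ.

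Rab3c, a small GTPase of secretory vesicles, was the member that passed the test between populations. It had 74 and 81 counts in Tg hair germ (6.51 and 9.82 CPM), 51 and 22 counts in control hair germ (4.48 and 1.46 CPM), 3 and 7 counts in Tg IFE (0.405 and 0.529 CPM), and 1 and 11 counts in control IFE (0.174 and 0.934 CPM). All 4 hair germ libraries were above all 4 IFE libraries, and both Tg hair germ pups were above both control pups. Hair germ over IFE was 16.3-fold in Tg pups (95% interval 8.64 to 34.7), a log2 fold change of 4.03 (SE 0.98, edgeR adjusted p 0.0284). In control pups the same comparison gave 4.03-fold, a log2 fold change of 2.06 (SE 1.07, adjusted p 0.619), and averaged over genotypes it gave a log2 fold change of 3.05 (SE 0.73, adjusted p 0.0347). The averaged call was lost with the pup as a block (adjusted p 0.0501) and without any 1 library other than control hair germ pup 5 (adjusted p 0.0570 to 0.273). Tg over control hair germ was 2.86-fold (95% interval 2.15 to 3.83), with a log2 fold change of 1.50 (SE 0.69) and an adjusted p of 0.283. Rab3c lies at chr13:110054187-110280996 on the minus strand.

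The Rab3c call in Tg pups rested on the whole set of libraries. It was lost when any 1 of the 4 Tg libraries (adjusted p 0.0724, 0.167, 0.351 and 0.418 without Tg hair germ pups 4 and 6 and Tg IFE pups 4 and 6) or of the 2 control IFE libraries (0.0590 and 0.0581 without pups 3 and 5) was left out. The fold change stayed between 3.69 and 4.26 on the log2 scale over the 8 such fits. Without the 2 libraries richest in Rn45s it was 3.86, with an adjusted p of 0.592, and edgeR's older quasi-likelihood method (0.168) and limma-voom (0.141) did not call it.

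**Figure D3:**
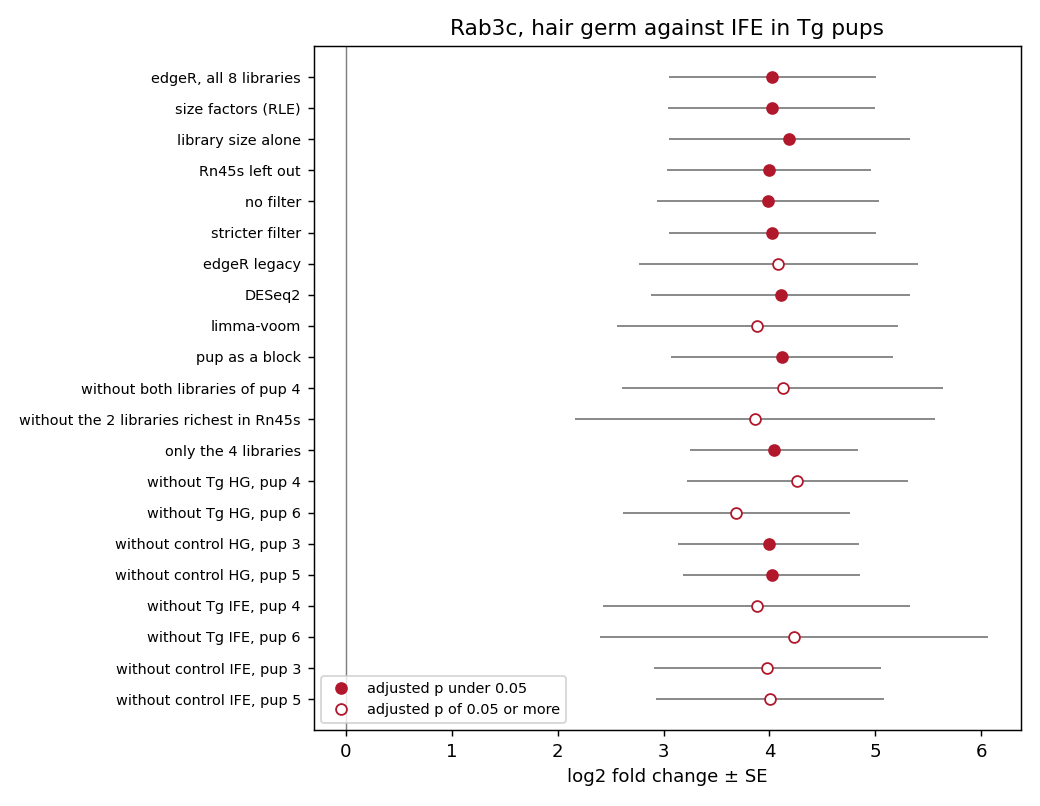
Log2 fold change of Rab3c, hair germ against IFE in Tg pups, with its SE under each way of processing the counts and without each library in turn; filled points have an adjusted p under 0.05. The value stays between 3.69 and 4.26 in every setting drawn, while the call comes and goes.

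Snap25, a SNARE protein of regulated exocytosis, was carried by single pups. It had 0 and 47 counts in Tg hair germ (0 and 5.70 CPM), 0 and 22 counts in control hair germ (0 and 1.46 CPM), 2 and 9 counts in Tg IFE, and 0 and 1 counts in control IFE. Pups 6 and 5 held all hair germ counts of the gene, so the groups overlapped and the Tg difference in hair germ was 1.62 (log2, SE 1.39, edgeR adjusted p 0.585). The ratio of summed counts in control pups, 22 in hair germ against 1 in IFE, was 14.6 (95% interval 2.36 to 602).

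Piezo2, the mechanically gated cation channel through which Merkel cells sense touch, was read in all 8 libraries and had its lower values in Tg pups. It had 127 and 51 counts in Tg hair germ (11.2 and 6.18 CPM), 210 and 238 counts in control hair germ (18.5 and 15.8 CPM), 34 and 39 counts in Tg IFE (4.59 and 2.95 CPM), and 57 and 62 counts in control IFE (9.93 and 5.26 CPM). In both populations both Tg pups were below both control pups. The ratio of Tg to control was 0.535 in hair germ (95% interval 0.448 to 0.638) and 0.521 in IFE. The log2 fold changes were -0.95 (SE 0.53, edgeR adjusted p 0.388) in hair germ and -0.99 (SE 0.66, adjusted p 0.537) in IFE. Hair germ was above IFE in each of the 4 pups, by 2.57-fold in Tg pups (adjusted p 0.310) and by 2.50-fold in control pups (adjusted p 0.584), although the ranges crossed, with 6.18 CPM as the lowest hair germ value and 9.93 CPM as the highest IFE value.

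Divided by exon length, which allows levels of different genes to be set side by side, the order differed between genotypes in hair germ. In Tg hair germ the means ran from Sox2 (2.24 CPM per kb) through Insm1 (1.47), Pou4f3 (1.44), Isl1 (1.38), Atoh1 (1.06), Rab3c (0.678) and Piezo2 (0.506) to Snap25 (0.419 CPM per kb). Only Sox2 stood clear there, at 2.12 to 2.35 CPM per kb, since Insm1 (1.31 to 1.64), Pou4f3 (1.36 to 1.52), Isl1 (1.13 to 1.62) and Atoh1 (0.800 to 1.33) overlapped their neighbours. In control hair germ the means ran from Atoh1 (1.08), Piezo2 (0.998), Pou4f3 (0.916) and Insm1 (0.468) to Rab3c (0.247), Snap25 (0.108), Isl1 (0.101) and Sox2 (0.0854 CPM per kb). There Sox2 was lowest, and all neighbours in the order overlapped. No test was made between genes.

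Read as a set, the comparison of Tg with control hair germ called 0 of the 8 members with edgeR, where 0.952% of the 14176 tested genes were called. DESeq2 also called 0 members, with 663 of the 14176 genes called, and limma-voom 0 members, with 17 genes called. At an unadjusted p under 0.05 there were 3 members, Sox2, Isl1 and Rab3c, against 17.1% of all genes. Both Tg libraries were above both controls for 4 members (Sox2, Isl1, Insm1 and Rab3c), against 22.4% of all genes, and below them for 1 (Piezo2), against 16.9%. The median log2 fold change was 1.50 over the 8 members and 0.04 over all tested genes. Sox2 and Isl1 met the filter on low counts only through Tg hair germ, with at most 4 and 12 counts in any other library. The Tg excess among the members therefore describes these libraries and was not tested as a property of the set.

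In IFE the comparison of Tg with control called 0 of 8 members, where 6.34% of all genes were called. None had an unadjusted p under 0.05, against 17.3% of all genes, and 0 members were called with DESeq2 (1095 of all genes called) or limma-voom (661 called). Both Tg IFE libraries were above both controls for 2 members (Sox2 and Snap25), against 27.9% of all genes, and below them for 1 (Piezo2), against 25% of all genes. For Atoh1, Sox2 and Isl1 both groups were at or under 3 counts, so that no difference was detectable at this depth. Pou4f3 was at least 3.68-fold higher in Tg IFE, from the 13 counts of pup 6, and Snap25 had 11 counts in Tg IFE and 1 in control IFE, a ratio of 9.34 (95% interval 1.36 to 402). Insm1 (log2 fold change 1.14, SE 2.29) and Rab3c (-0.47, SE 1.55) overlapped between genotypes. Over the 5 members with a fold the median log2 value was 1.14, against -0.01 over all tested genes. The Tg effect was tested for a difference between hair germ and IFE, and 0 of 8 members passed in edgeR, against 0.134% of all genes. With DESeq2 (177 of all genes called) and limma-voom (1 called) 0 members passed. At an unadjusted p under 0.05 there were 0 members, against 8.11% of all genes, and the lowest adjusted p was that of Rab3c, 0.884 (log2 difference 1.97, SE 1.72).

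Between populations in Tg pups, 1 of 8 members was called, Rab3c, where 4.62% of all genes were called and 0.875% were called higher in hair germ. Both hair germ libraries were above both IFE libraries for 7 members (all but Snap25), against 26.4% of all genes. The median log2 fold change was 3.54 with Atoh1 at its bound, against 0.02 over all tested genes. In control pups 0 of 8 members were called with edgeR, where 0.00705% of all genes were called. With DESeq2 (149 of all genes called) and limma-voom (0 called) 0 members were called. Atoh1 and Piezo2 had an unadjusted p under 0.05, 2 of 8 members against 8.47% of all genes. Atoh1, Rab3c and Piezo2 had both control hair germ libraries above both control IFE libraries, 3 of 8 members against 14.2% of all genes. The median there was 2.38 with the 3 members at 0 in control IFE placed at their bounds, against -0.04 over all tested genes. Averaged over genotypes 1 of 8 members was called, against 3.39% of all genes, and 6 of 8 had an unadjusted p under 0.05, against 18.8%. The hair germ and IFE comparisons share their libraries with the genotype comparisons, so the sets of values are not independent. Because 7 members entered the test through hair germ, the excess there describes the libraries and was not tested as a property of the set.

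**Figure D4:**
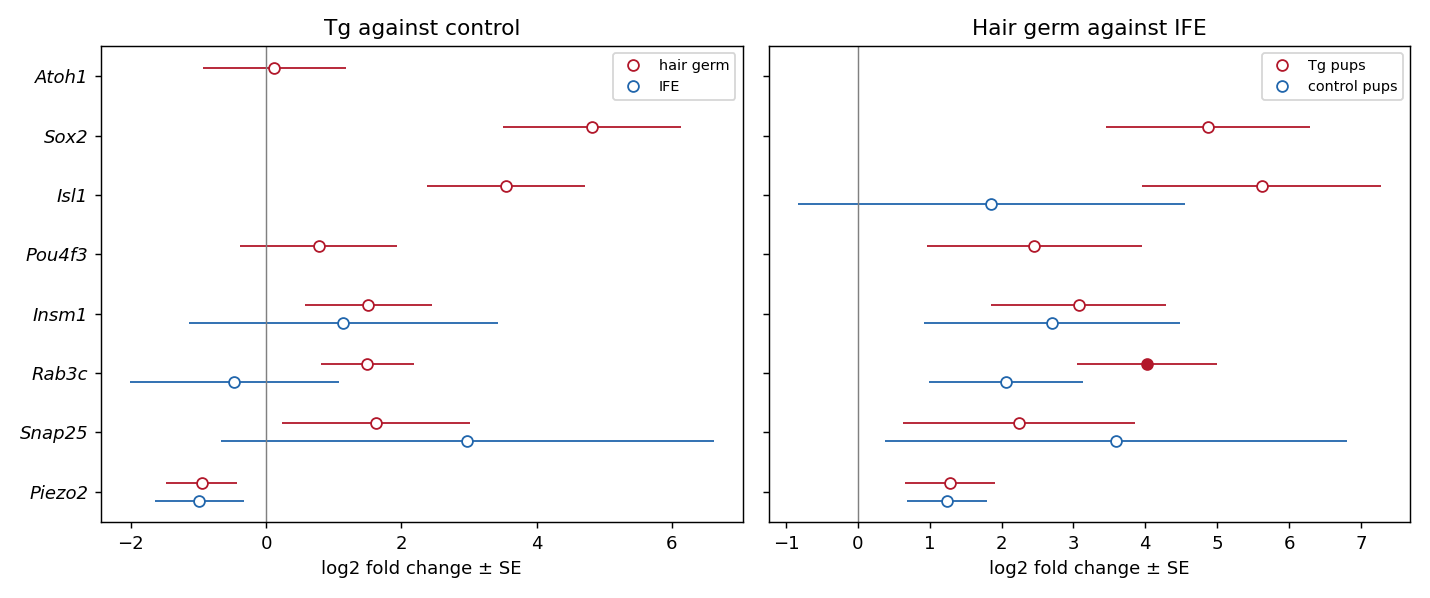
Log2 fold changes with SE of the 8 Merkel cell genes, for Tg against control (left, in hair germ and in IFE) and for hair germ against IFE (right, in Tg pups and in control pups); filled points have an adjusted p under 0.05, and genes at 0 counts in one group or at or under 3 counts in both are not drawn. Rab3c in Tg pups is the filled point, at 4.03, and Piezo2 lies below 0 in both genotype comparisons.

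Replicate spread of the members was widest in control hair germ. The median difference between the pups of a group was 0.538 in Tg hair germ, 2.46 in control hair germ, 0.856 in Tg IFE and 0.712 in control IFE (absolute log2 CPM), against 0.463, 0.551, 0.252 and 0.442 over all tested genes in the same groups. In control hair germ Isl1, Pou4f3 and Snap25 had at least 10 counts in 1 pup and 0 in the other, 3 of 8 members. Among 3989 tested genes with a mean level in the members' range (1.02 to 9.29 CPM), 22.6% did so in control hair germ. In Tg hair germ this held for 1 member, Snap25, and for 12.1% of those genes, and in Tg IFE for 1 member, Pou4f3, and for 0.877%. In control IFE it held for 0 members and for 3.61%. Isl1 and Snap25 were present in pup 5 and Pou4f3 in pup 3, so no 1 control pup lacked the whole set.

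The Merkel keratins, simple epithelial keratins that Merkel cells share with other epithelia, were also unequal between the groups. Krt18 was at 22.3 and 11.9 CPM in Tg hair germ, 0.615 and 3.59 CPM in control hair germ, 13.5 and 23.7 CPM in Tg IFE, and 1.04 and 0.509 CPM in control IFE. It rose in Tg IFE (log2 fold change 4.75, SE 0.89, edgeR adjusted p 0.00565), and in hair germ the log2 fold change was 2.94 (adjusted p 0.0565). Krt8 had a log2 fold change of 2.53 in hair germ (adjusted p 0.201) and 2.79 in IFE (adjusted p 0.245). Krt20, the keratin most restricted to Merkel cells in skin, was at 7.92 and 3.03 CPM in Tg hair germ, 3.78 and 0.930 CPM in control hair germ, 1.08 and 0.453 CPM in Tg IFE, and 0.697 and 0 CPM in control IFE. It was higher in hair germ in all 4 pups, with a log2 fold change of 3.02 in Tg pups (adjusted p 0.165) and 3.20 in control pups (adjusted p 0.623). Krt20 was thus higher in the hair germ of each pup, as Rab3c was, whereas Krt18 in Tg IFE was high in libraries in which Atoh1 was at 0.

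Among 11 other Merkel cell genes, 6 were tested and 0 were called in any comparison. Lhx3, a LIM-homeodomain factor named here after its values were seen, had 38 and 16 counts in Tg hair germ and 0 counts in the other 6 libraries. This was at least 24.3-fold higher than control hair germ (adjusted p 0.147). Ncam1, a neural cell adhesion molecule, was at 132 and 124 CPM in Tg hair germ, 44.1 and 76.1 CPM in control hair germ, 66.4 and 89.5 CPM in Tg IFE, and 13.1 and 46.2 CPM in control IFE (Tg against control, adjusted p 0.223 in hair germ and 0.111 in IFE). Penk, which encodes an opioid peptide precursor, was at 34.9 and 22.7 CPM in Tg hair germ and 73.3 and 39.0 CPM in control hair germ (adjusted p 0.198). The neuropeptide gene Cck had 0 counts in all 8 libraries.

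Genes of regulated secretion numbered 30, of which 15 were tested and 0 called in any comparison. The granin gene Scg2 had 0 counts in every library, and Chga, Chgb and Syt1 were at 0 in both control hair germ libraries. In Tg hair germ Chga had 2 and 18 counts, Chgb 16 and 0, and Syt1 2 and 0. Tg IFE had 0 counts of Chga and Chgb, and 1 and 4 counts of Syt1. None of these genes passed the filter on low counts. The prohormone convertase gene Pcsk2 was at 36.4 and 16.8 CPM in Tg hair germ, 34.7 and 40.7 CPM in control hair germ, 25.8 and 25.2 CPM in Tg IFE, and 43.5 and 38.2 CPM in control IFE, with overlap between hair germ and IFE. Rab3d, a paralogue of Rab3c, was at 45.6 and 27.0 CPM in Tg hair germ, 79.0 and 37.8 CPM in control hair germ, 43.0 and 39.5 CPM in Tg IFE, and 84.1 and 60.4 CPM in control IFE. Of 15 paralogues of the members, 9 were tested and 0 called. Piezo1, the paralogue of Piezo2, was at 158 and 141 CPM in Tg hair germ and 199 and 287 CPM in control hair germ (adjusted p 0.242).

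Pathways that control Merkel cell formation, chiefly Hedgehog, Eda, Fgf, Notch and Polycomb, were read from 22 genes, 20 of them tested. In hair germ 1 fell in Tg pups, Ptch1, the Hedgehog receptor and target (log2 fold change -1.02, SE 0.20, edgeR adjusted p 0.0404), and 0 rose. The ligand gene Shh had 42.9 and 143 CPM in Tg hair germ and 31.3 and 14.9 CPM in control hair germ (adjusted p 0.102). In Tg IFE 4 fell (Ptch1, Fgfr2, Smo and Gli2) and 1 rose, the Notch effector Rbpj (log2 fold change 1.17, adjusted p 0.00917). Between populations in Tg pups 6 were higher in hair germ (Shh, Gli1, Gli2, Ptch1, Smo and Edar) and 1, Rbpj, was lower. The Shh value was 3.16 (SE 0.59, adjusted p 0.0106) in the comparison in which Rab3c was called.

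Markers of other cells in the sorts differed between the groups as well. The melanocyte list (11 genes) summed to 157 to 206 CPM in Tg hair germ, 32.8 to 36.6 CPM in control hair germ, 149 to 170 CPM in Tg IFE, and 21.5 to 24.4 CPM in control IFE, and 4 of its genes rose in Tg hair germ and 5 in Tg IFE. The dermal papilla list (13 genes), a tissue in which Sox2 is also expressed, summed to 92.4 to 97.5 CPM in Tg hair germ, 19.4 to 27.5 CPM in control hair germ, 134 to 162 CPM in Tg IFE, and 24.4 to 31.2 CPM in control IFE. Most of that sum came from Trps1, at 61.5 and 80.5 CPM in Tg hair germ and 111 and 97.1 CPM in Tg IFE. Of the 13 genes, both Tg hair germ libraries were above both Tg IFE libraries for 2 (Alpl and Rspo3), against 26.4% of all genes. They were below them for 3 (Prdm1, Fgf7 and Trps1), and the share of all genes that were lower is not given here. Alpl was at 1.50 and 3.51 CPM in Tg hair germ and 1.08 and 0.605 CPM in Tg IFE. Prdm1 was at 17.6 and 5.45 CPM in Tg hair germ and 43.4 and 33.3 CPM in Tg IFE. Whether papilla cells gave any of the Sox2 counts was not tested. Sox18, Crabp1 and Fgf7 of that list were at 0 in both Tg hair germ libraries, and of its 6 tested genes 1, Trps1, rose in each population. The Schwann cell list (11 genes, 5 tested, 0 called) summed to 224 to 280 CPM in Tg hair germ and 170 to 183 CPM in control hair germ, with Cdh19 among its genes at 0 in both Tg hair germ libraries. Sox10, which marks melanocytes and Schwann cells, was at 2.91 and 6.54 CPM in Tg hair germ, 2.16 and 3.25 CPM in Tg IFE and 0 in all 4 control libraries.

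The sensory neuron list (13 genes, 6 tested, 0 called) summed to 11.9 to 50.2 CPM in Tg hair germ and 5.78 to 10.5 CPM in control hair germ. Of its 13 genes, Elavl4 and Calca were at 0 in both Tg hair germ libraries. Ntrk2 was at 6.43 and 10.4 CPM in Tg hair germ, 0.703 and 2.92 CPM in control hair germ, 1.08 and 0.907 CPM in Tg IFE, and 1.22 and 0 CPM in control IFE (hair germ against IFE in Tg pups, adjusted p 0.111). Pou4f1, a paralogue of Pou4f3, had 16 and 19 counts in Tg hair germ, 26 and 19 in control hair germ, 0 and 4 in Tg IFE, and 4 and 8 in control IFE. The high summed value was that of pup 6, the pup that held the Snap25 counts, and came mostly from Ntrk3 (32.1 CPM). The immune list (12 genes) summed to 191 to 317 CPM in Tg hair germ, 56.2 to 122 CPM in control hair germ, 2124 to 2764 CPM in Tg IFE, and 90.4 to 187 CPM in control IFE, with 3 genes up in Tg hair germ and 10 in Tg IFE. Basal epidermal genes (9) summed to 17606 to 21589 CPM in Tg hair germ, 26661 to 30748 CPM in control hair germ, 16986 to 17249 CPM in Tg IFE, and 34044 to 36676 CPM in control IFE. They fell for 6 of 9 in Tg IFE and for 0 in Tg hair germ. Suprabasal genes (5 found) showed 0 calls in either genotype comparison. The hair germ list (11 genes) summed to 1283 to 1701 CPM in Tg hair germ, 1075 to 1208 CPM in control hair germ, 671 to 766 CPM in Tg IFE and 709 to 910 CPM in control IFE, and Lhx2 was higher in hair germ than IFE in Tg pups (log2 fold change 2.54, adjusted p 0.00358). Cdh3, the gene of the sort marker P-cadherin, separated the populations less. It was at 421 and 576 CPM in Tg hair germ and 281 and 309 CPM in Tg IFE. In controls it was at 353 and 436 CPM in hair germ and 293 and 386 CPM in IFE. Averaged over genotypes its log2 fold change was 0.49 (SE 0.16, edgeR adjusted p 0.126). The part of these other cells in the values of the Merkel cell genes was not tested.

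Seed matches of the miR-200 family were looked for in the 3′ UTRs because the Tg pups carry a miR-200 construct. Which hairpins it holds is not stated in the sources used here, so all mature 3p forms are shown, from RefSeq (GRCm38.p6), with the seed (bases 2 to 8) in capitals. They fall into 2 seed groups.
mmu-miR-200b-3p: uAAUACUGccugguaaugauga
mmu-miR-200c-3p: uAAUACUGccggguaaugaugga
mmu-miR-429-3p: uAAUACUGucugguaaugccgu
mmu-miR-200a-3p: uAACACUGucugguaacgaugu
mmu-miR-141-3p: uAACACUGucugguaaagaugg
The reverse complement of the first seed, CAGTATT, occurred on the transcript strand in Sox2, Rab3c and Snap25 (GENCODE vM21), and the sites are shown with the match in capitals.
Sox2: cttttgtaCAGTATTtatcgag
Rab3c: tctcctagCAGTATTtgtctag
Snap25, first site: tcaatacaCAGTATTgttcttg
Snap25, second site: cgcatgctCAGTATTgggacac
Sox2 and Rab3c held 1 match each, at base 455 and at base 5540 of the 3′ UTR, and Snap25 held 2, at bases 389 and 705. Among genes with a 3′ UTR of like length (within 10%), the share with a match was 13.7% for Sox2, 49.1% for Rab3c and 12.3% for Snap25. CAGTGTT, the reverse complement of the second seed, occurred 1 time in Pou4f3, where 16.5% of like-length genes held it. The other 4 members, Atoh1, Isl1, Insm1 and Piezo2, held neither. A match is a description of letters, and no binding or repression was tested.

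The tested genes whose profiles over the 8 libraries were most like each member were found by the root-mean-square difference of centred log2 CPM. Nearest to Atoh1 were Tmc5 (0.43), Fut4-ps1 (0.46) and Zfp648 (0.52), against a median of 1.95 over all candidates. Nearest to Sox2 were Mir1948 (0.51), Fn3krp (0.55) and Lhx3 (0.57), against a median of 1.94. Fn3krp, at a mean of 67.1 CPM in Tg hair germ and 10.8 CPM in control hair germ, was far more abundant than Sox2. For Rab3c they were Ncam2 (0.34), Arpp21 (0.58) and Zfp648 (0.58), with Ncam2 at 2.79 CPM in Tg hair germ, 0.870 CPM in control hair germ, 0.0378 CPM in Tg IFE and 0.0424 CPM in control IFE. Insm1 was nearest to Dpyd (0.45), Ntrk2 (0.50) and Snord12 (0.53), and Isl1 to Rgs17 (0.78), Dpyd (0.79) and Cdh6 (0.80). Pou4f3 was nearest to Cntn2 (0.50), Hecw2 (0.58) and Snap91 (0.75), and Snap25 to Syt6 (0.40), Prr18 (0.53) and Hus1b (0.61). Piezo2 was nearest to Slc25a27 (0.31), Spef1 (0.33) and Srcin1 (0.35), against a median of 1.01. With 8 libraries and counts this low, such likeness is a description.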

How the data were processed

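Per the labels' protocols, sorted cells were lysed in Trizol and the low-input SMARTer kit for stranded total RNA gave the libraries. The authors deposited raw counts of reads, 1 per symbol in each library, and per the submitters' processing notes TopHat, HTSeq and DESeq2 were used with mm10 (GRCm38). Neither tool versions nor how HTSeq treated strand is stated in the sources used here. A normalised matrix was not used. The 5 summary lines per library were left out, and 23.4% to 42.4% of recorded reads were assigned to genes.

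The 23433 symbols were scaled by TMM and filtered with filterByExpr by group to 14176 genes in edgeR 4.0.16 (R 4.3.3). A fit of 4 group means over all 8 libraries (glmQLFit with legacy set to FALSE, glmQLFTest, two-sided) was adjusted by Benjamini-Hochberg over all tested genes at 0.05. Each SE was obtained by dividing the size of the log2 fold change by the root of its F statistic. Folds are ratios of summed counts over summed TMM-scaled library sizes with exact binomial 95% intervals. Against a group at 0, the floor is 3 counts over the group. Genes were named by a rule: every member, the called genes of each other list (up to 4, or else the 2 with the highest mean), and the 3 genes nearest each member in profile (prior count 2). Further genes, among them Sox10, Pou4f1 and list genes given at 0 counts, were named outside this rule with their values known. The procedure was tested on simulated data with less spread than these libraries, in which only genes of a higher level than most members were changed. That test does not cover genes as low as most members. Alternatives used DESeq2 1.42.0 and limma 3.58.1 among others. The members and the 13 other gene lists were chosen with earlier results of these data known.

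Pups are separate animals, 2 per group. Per the labels a pup number marks the hair germ and IFE of 1 animal, so populations are paired by pup and genotypes are not. The main fit held no pup term and treated the libraries of a pup as independent. The pup as a block was an alternative. The correlation across genes of the paired libraries' deviations from their group means was 0.0868 in Tg and 0.117 in control pups.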

Additional observations from a re-analysis of the deposited data

How the results depend on the processing

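Each comparison was recomputed with other scalings, filters, tools and libraries. For Tg against control in hair germ, Tg against control in IFE, hair germ against IFE in control pups and the difference of effects, 0 members were called in each alternative. In hair germ against IFE in Tg pups (1 member and 655 genes in all called) the count of members was 2 with library size alone (666 genes), 3 with only the 4 libraries (1385 of 13563 genes), and 0 with edgeR's older method (336), limma-voom (558), without pup 4 (0 of 14854) and without the 2 libraries richest in Rn45s (192 of 15205). It ranged from 0 to 3 over fits that left out 1 library, with 47 to 1026 genes in all. Averaged over genotypes (1 member and 481 genes) it was 2 with library size alone (536) and DESeq2 (1014), and 0 with edgeR's older method (355), limma-voom (221), the pup as replicate block (826), without pup 4 (1) and without the Rn45s-rich libraries (9). With 1 library left out it was 0 to 3, with 78 to 1258 genes in all. Where few or no genes were called at all, a count of 0 members says nothing about the members. The replicate block changed no other count of members called. Library size alone moved the median of all genes by over 0.1 in 5 comparisons: hair germ against IFE to 0.20 in Tg pups (0.02 with TMM), 0.26 in control pups (-0.04) and 0.21 averaged (-0.04), Tg against control in IFE to 0.15 (-0.01), and the difference of effects to -0.07 (0.06).

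Of 760 single-gene values, 697 kept direction and side of the threshold, 11 newly passed it, 22 lost it and 30 reversed. Atoh1 in Tg against control hair germ was -0.0129 with edgeR's older method, -0.0133 with DESeq2 and -0.34 without pup 4. Snap25 between populations in Tg pups was -0.34 with limma-voom. In the difference of effects, Insm1 was -4.59 without the Rn45s-rich libraries, and Piezo2 was -0.12 with library size alone, -0.0246 with no filter, -0.0643 with limma-voom, -0.0724 with the replicate block, -0.27 without pup 4 and -0.12 without the Rn45s-rich libraries. With 1 library left out, log2 values in Tg against control hair germ ranged from -0.81 to 2.05 for Atoh1, -0.36 to 8.14 for Pou4f3 and -6.16 to 7.68 for Snap25. In IFE they ranged from -0.38 to 5.63 for Insm1 and -0.87 to 1.42 for Rab3c. Between populations they ranged from -5.56 to 3.36 for Snap25 in Tg pups, and in control pups from -3.34 to 5.37 for Isl1, -0.39 to 7.17 for Insm1 and -2.46 to 6.11 for Snap25. Averaged over genotypes Snap25 ranged from -0.98 to 4.15, and in the difference of effects Insm1 ranged from -4.14 to 3.46 and Piezo2 from -0.54 to 0.51. The cause was not tested. Leaving out a library leaves a lone sample that is assumed to vary like the other groups. Members near the limit of 3 counts cannot be ordered at this depth.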
